A study of Homo sapiens with 15 samples.

Results

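Cyclins are regulatory subunits that rise and fall through the cell cycle, and cyclin-dependent kinases (CDKs) are the enzymes they switch on. D-type cyclins with CDK6 act in G1, E-type cyclins with CDK2 at the entry into S phase, cyclin A with CDK2 and CDK1 through S phase and G2, and cyclin B with CDK1 at the entry into mitosis. WEE1 is the kinase that holds CDK1 and CDK2 back by phosphorylating a tyrosine in their active site. The genes described here are the cyclins CCNA2, CCNB1, CCND2, CCND3, CCNE1 and CCNE2, the kinases CDK1, CDK2 and CDK6, and WEE1. They were found on the array as probes whose RefSeq accession belongs to one of these genes, which gave 12 probes for 10 genes, of 42405 probes and 19483 genes with a RefSeq symbol. CCNB1 and CCNE2 have 2 probes each and the other 8 genes have 1.

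RNA came from PE/CA-PJ41, an immortalised human oral squamous carcinoma line, and was hybridised to Agilent human arrays. NCE cells are given as carrying the empty vector by the labels and as un-transfected parent cells by some of the study's legends. CYGB+ cells carried the pCMV6-Neo plasmid with human cytoglobin cDNA under its viral promoter, had been selected in G418 as stable clones, and were a single clone with high cytoglobin according to the methods. Each group has 3 biological replicates, RNA being extracted on separate occasions after 24 h in culture medium. NCE was read on 9 arrays, 3 per biological replicate, and CYGB+ on 6 arrays, 2 per biological replicate. No further treatment is listed for either group. Nothing says that the replicates came from separate cultures, so that p-values measure the spread between these extractions.

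Of the genes that should mark the line, all 8 squamous epithelial markers (KRT5, KRT14, KRT6A, KRT17, TP63, CDH1, EPCAM and DSG3) passed the filter on dim probes. Their summed level ran from 39494 to 40919 in NCE and from 34890 to 50754 in CYGB+ replicates, and KRT6A alone was called (log2 fold change −0.46 ± 0.12 (SE), adjusted p = 0.0455), at −0.05 with the slide as a term (adjusted p = 0.973). For fibroblasts, COL1A1 and COL1A2 passed the filter, and PDGFRB, DCN, LUM and COL3A1 did not. COL1A2 was lower in CYGB+ (−1.32 ± 0.11, adjusted p = 0.00283, and −1.55 with the slide as a term, adjusted p = 2.08e-05). COL1A1 was not called, and its difference was not negative. The summed fibroblast list ran from 609.5 to 666.9 in NCE and from 472.1 to 504.5 in CYGB+, with 4 of its 7 probes above background on no array. Of the leukocyte markers only CD14 passed (−0.46, adjusted p = 0.152), not PTPRC, CD3E or ITGAM, and of the endothelial markers only CDH5 (0.05, adjusted p = 0.777), not PECAM1 or VWF. The part of these differences in the results below was not tested. The cytoglobin probe itself did not separate the groups, with levels of 11.85, 12.15 and 11.96 in NCE and 11.38, 12.44 and 11.97 in CYGB+ (log2 fold change −0.05, adjusted p = 0.907). These levels are at odds with the study, which describes the parent line as not expressing cytoglobin and the clone as a high expresser. The cause was not tested. Where this probe lies on the transcript is not given in the sources used here, so it does not check the labels, and every direction below is that of the arrays labelled CYGB+ against those labelled NCE.

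Slide and group were nearly the same split. Slide 1 held 8 arrays, all NCE, and slide 2 held the remaining NCE array, of replicate 1, with all 6 CYGB+ arrays. Effects of the slide and of the line can therefore be separated only through that 1 NCE array, and the fit with the slide as a term, and for the called members also that within slide 2, is given beside the results. The array that stood apart from the rest was array 1 of CYGB+ replicate 1, whose median correlation with its own group was 0.935 against 0.974 to 0.991 for the other arrays. Calls that are gained or lost without it are given both ways for the cell cycle genes named with a value. For the markers above, 1 squamous probe was called higher and 2 lower without it, and CD14 was called lower. Over all probes tested, 10.1% were called higher and 9.91% lower without it.

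All 12 probes were above background on all 15 arrays and none was saturated. The genes of the set that were lower in CYGB+ cells were WEE1, which restrains CDK1, CDK1 itself, and cyclin E1. With limma and Benjamini-Hochberg adjustment over 20417 probes, 3 of the 12 probes were called lower and 0 higher at an adjusted p under 0.05, where 5.75% of all probes tested were called lower and 5.88% higher. None of the probes with a positive difference had an unadjusted p under 0.05, and the methods' t-test called 0 in either direction after adjustment. The median log2 fold change was −0.23 over the 12 probes, of which 8 were negative, and 0.0015 over all probes tested, of which 49.8% were negative. All CYGB+ replicates lay below all NCE replicates for 5 of the 12 probes, against 17.3% of all probes tested. In bulk RNA, fewer cells in a phase of the cycle and less RNA per cell cannot be told apart.

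**Figure D1:**
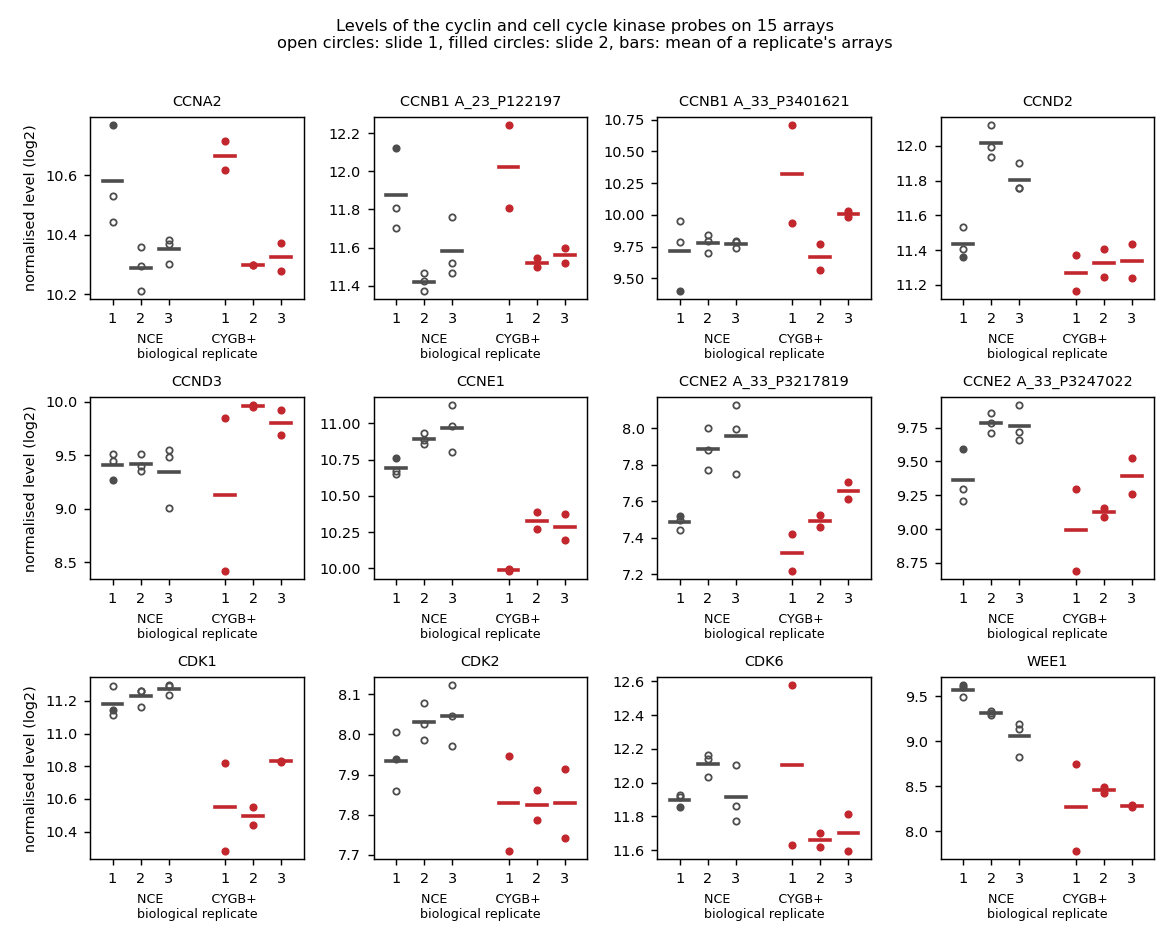
Normalised green level (log2) of each of the 12 probes on 15 arrays, by group and biological replicate. Open circles are arrays of slide 1, filled circles arrays of slide 2, and bars the mean of a replicate's arrays. The CYGB+ replicates of WEE1 lie between 8.27 and 8.46, below the NCE replicates at 9.05 to 9.57, while the CCNA2 replicates of the groups overlap. The axes start at different levels, since levels of different probes are not comparable.

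WEE1 showed the largest difference of the 12 probes. Its level was 9.57, 9.31 and 9.05 in NCE replicates 1 to 3 and 8.27, 8.46 and 8.28 in CYGB+ replicates 1 to 3. The means were 9.31 ± 0.26 and 8.34 ± 0.11 (SD, n = 3 each, with p from limma below), so that the lowest NCE replicate stood above the highest CYGB+ replicate. The log2 fold change was −0.98 ± 0.15 (SE, adjusted p = 0.00952), a level 1.97 times as high in NCE (95% interval 1.55 to 2.50). On slide 2, the NCE array read 9.62 and the 6 CYGB+ arrays 7.78 to 8.75, with a median of 8.36. The array that stood apart gave the lowest of these, and without it the difference was −0.82 (adjusted p = 0.0124). The difference was −1.20 with the slide as a term (adjusted p = 0.0311) and −1.28 within slide 2 (adjusted p = 0.166), and over all 19 alternatives adjusted p ran from 0.000285 to 0.166.

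CDK1, the kinase that drives entry into mitosis and the main target of WEE1, was also lower. NCE replicates read 11.18, 11.23 and 11.27, a spread of less than 0.1, and CYGB+ replicates 10.55, 10.50 and 10.83. The log2 fold change was −0.60 ± 0.12 (SE, adjusted p = 0.0205), or 1.52 times the level in NCE (1.26 to 1.83). On slide 2 the NCE array stood at 11.15, above all 6 CYGB+ arrays at 10.28 to 10.83. The lowest was again the array that stood apart, and without it the difference was −0.51 (adjusted p = 0.0164). The direction was the same with the slide as a term (−0.53) and within slide 2 (−0.52), but the call was lost in both (adjusted p = 0.155 and 0.472, of 0.000356 to 0.472 over all alternatives).

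Of the cyclins, CCNE1 (cyclin E1), a partner of CDK2, was called. NCE replicates read 10.69, 10.89 and 10.97, and CYGB+ replicates 9.99, 10.33 and 10.28. Every CYGB+ replicate was below every NCE replicate, with a log2 fold change of −0.65 ± 0.13 (SE, adjusted p = 0.0233), or 1.57 times the level in NCE (1.27 to 1.94). The NCE array on slide 2 read 10.76 and the CYGB+ arrays 9.98 to 10.39. The difference was −0.62 in the fit with the slide, where the call was lost (adjusted p = 0.0783), as it was within slide 2 (−0.56, adjusted p = 0.443), and the alternatives as a whole gave 0.000142 to 0.443.

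The close relative CCNE2 (cyclin E2) has 2 probes, both lower in mean and neither called. Probe A_33_P3247022 read 9.37, 9.79 and 9.76 in NCE and 8.99, 9.12 and 9.39 in CYGB+, so that CYGB+ replicate 3 lay just above NCE replicate 1. Its difference was −0.47 ± 0.16 (SE, adjusted p = 0.0971). With the replicate block, whose pairing the correlations do not single out from another one, this probe was called at the same difference (adjusted p = 0.0404), where 7.5% of all probes were called lower. Probe A_33_P3217819 read 7.49, 7.89 and 7.96 in NCE against 7.32, 7.49 and 7.66 in CYGB+ (−0.29 ± 0.15, adjusted p = 0.267). The probes gave −0.54 and −0.13 with the slide as a term (adjusted p = 0.379 and 0.904).

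The promoters of a called kinase, a called cyclin and an uncalled cyclin are shown because genes of the cell cycle are commonly controlled through a few short motifs upstream of their start. The 250 bases before the RefSeq start (GRCh38.p14) were searched on both strands for E2F sites (TTTCGCGC, TTTGGCGC, TTTCCCGC), cell cycle homology region (CHR) letters (TTTGAA on its own or TTCGAA on its own) and the CCAAT box. Capitals mark the letters found, and other forms of these motifs were not searched for. No matches of different motifs overlapped in the sequences shown.
CDK1, chr10:60778228-60778477, plus strand: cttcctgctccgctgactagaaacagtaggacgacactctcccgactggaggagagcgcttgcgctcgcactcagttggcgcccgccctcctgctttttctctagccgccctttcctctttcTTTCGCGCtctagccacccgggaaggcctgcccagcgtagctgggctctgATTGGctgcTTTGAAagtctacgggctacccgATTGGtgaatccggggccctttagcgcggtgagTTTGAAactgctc
CCNE1, chr19:29811741-29811990, plus strand: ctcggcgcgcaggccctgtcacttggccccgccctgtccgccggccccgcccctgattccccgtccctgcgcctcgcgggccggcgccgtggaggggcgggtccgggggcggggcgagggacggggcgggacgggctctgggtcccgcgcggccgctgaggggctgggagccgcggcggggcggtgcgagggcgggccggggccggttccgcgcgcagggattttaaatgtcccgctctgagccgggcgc
CCNB1, chr5:69166900-69167149, plus strand: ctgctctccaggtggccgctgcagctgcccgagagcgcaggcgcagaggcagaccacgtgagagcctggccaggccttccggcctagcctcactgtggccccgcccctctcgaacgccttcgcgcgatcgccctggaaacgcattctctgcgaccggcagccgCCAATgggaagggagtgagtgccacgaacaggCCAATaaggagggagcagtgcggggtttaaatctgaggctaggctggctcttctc
The CDK1 stretch held 1 E2F match, 2 CHR matches and 2 CCAAT boxes, CCNB1 held 2 CCAAT boxes, and CCNE1 held none of these letters. Over all 35116 stretches of the same length, 2.32% held an E2F match, 14.3% a CHR match, 32% a CCAAT box and 5.05% both a CHR match and a CCAAT box. A further CDK1 start in the RefSeq table, beginning upstream of this one, held 1 CHR match and 1 CCAAT box. Of the other members with an entry, CCNA2 held 1 CCAAT box, CCND3 had 3 starts of which 2 held 1 CCAAT box each, and the 2 starts of CDK6 held none. Entries for CCND2, CDK2 and WEE1 were not in the table, and CCNE2 was not searched.

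The D-type cyclins, which respond to growth signals in G1, and their partner CDK6 were not called. CCND2 read 11.43, 12.02 and 11.80 in NCE and 11.27, 11.33 and 11.34 in CYGB+, so that the groups did not overlap, with NCE replicate 1 close to CYGB+. Its difference of −0.44 ± 0.15 (SE, adjusted p = 0.106) shrank to −0.15 with the slide as a term and to −0.05 within slide 2, where the NCE array at 11.36 lay among the CYGB+ arrays at 11.17 to 11.44. Without NCE replicate 1 the difference was −0.60 (adjusted p = 0.0440, of 0.0117 to 0.960 over the alternatives).

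CCND3 ran the other way in 2 of 3 CYGB+ replicates. NCE replicates read 9.41, 9.42 and 9.34, and CYGB+ replicates 9.13, 9.96 and 9.81, a difference of 0.24 ± 0.20 (SE, adjusted p = 0.478). The low value came from the array that stood apart, which read 8.42 where the other 5 CYGB+ arrays read 9.69 or more. Without it CCND3 was called higher by 0.48 (adjusted p = 0.00814), where 10.1% of all probes were called higher and 9.91% lower. Over the alternatives adjusted p ran from 0.00550 to 0.829, and with the slide as a term the difference was 0.38 (adjusted p = 0.829).

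CDK6 depended on the same array. NCE replicates read 11.90, 12.11 and 11.91, and CYGB+ replicates 12.10, 11.66 and 11.70, a difference of −0.15 ± 0.14 (SE, adjusted p = 0.523). Here the array that stood apart was the highest of all, at 12.58, and without it CDK6 was called lower by −0.31 (adjusted p = 0.0496, of 0.0474 to 0.984 over the alternatives). Within slide 2, with that array included, the difference was −0.03. Without the array, 1 of the 12 probes was called higher and 4 lower.

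CDK2, the partner of cyclins E and A, differed little. It read 7.93, 8.03 and 8.05 in NCE and 7.83, 7.82 and 7.83 in CYGB+. The groups did not overlap, but the difference of −0.18 (95% interval −0.39 to 0.03) was not called (adjusted p = 0.246). It was −0.14 with the slide as a term (adjusted p = 0.775) and −0.11 within slide 2.

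The cyclins of S phase, G2 and mitosis gave no call in any of the alternatives run. CCNA2 (cyclin A2) read 10.58, 10.29 and 10.35 in NCE and 10.66, 10.30 and 10.33 in CYGB+, and replicate 1 was the highest in both groups. Its difference was 0.02 (95% interval −0.30 to 0.35, adjusted p = 0.929). With the slide as a term it was −0.30 (adjusted p = 0.433), the NCE array on slide 2 having read 10.77 and the CYGB+ arrays 10.28 to 10.71.

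The 2 probes of CCNB1 (cyclin B1), the mitotic partner of CDK1, gave small positive differences and parted once the slide was considered. Probe A_23_P122197 read 11.88, 11.42 and 11.58 in NCE and 12.02, 11.52 and 11.56 in CYGB+ (0.07, 95% interval −0.34 to 0.48, adjusted p = 0.815). Probe A_33_P3401621 read 9.71, 9.78 and 9.77 in NCE and 10.32, 9.67 and 10.01 in CYGB+ (0.25, 95% interval −0.13 to 0.63, adjusted p = 0.361), and its difference was 0.12 without the array that stood apart (adjusted p = 0.475). Both sets of replicates overlapped. With the slide as a term the probes gave −0.36 and 0.62 (adjusted p = 0.565 and 0.275), since the NCE array on slide 2 was the highest NCE array for the former (12.12) and the lowest for the latter (9.40). No direction can be given for this gene.

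**Figure D2:**
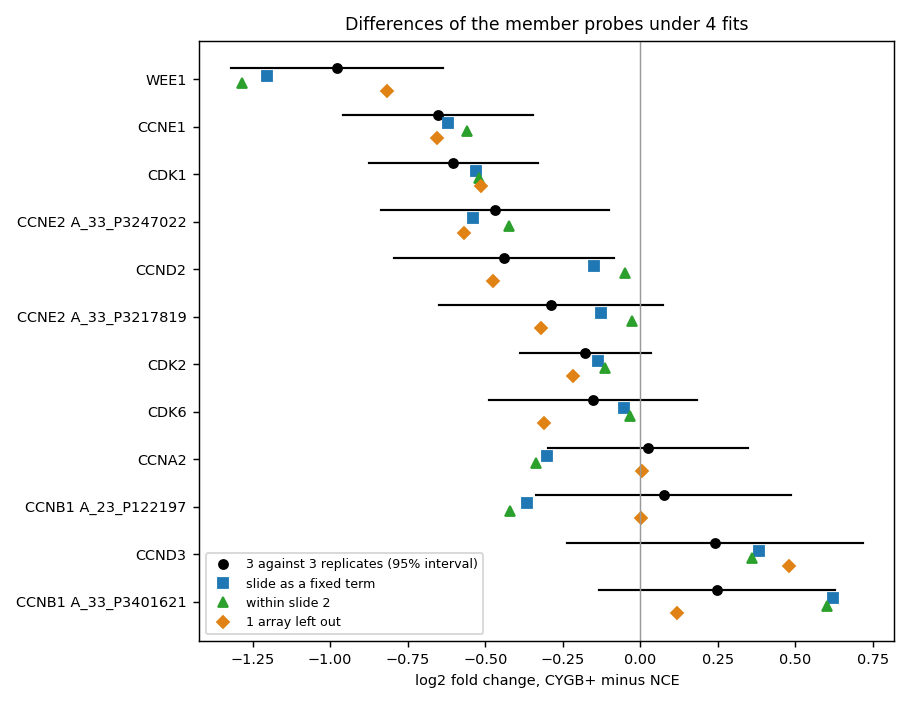
Log2 fold change, CYGB+ minus NCE, of the 12 probes under 4 fits. Black circles with bars are the comparison of 3 against 3 replicates with its 95% interval, blue squares the fit with the slide as a term, green triangles the fit within slide 2 and orange diamonds the fit without the array that stood apart. All 4 symbols lie below 0 for WEE1, CCNE1 and CDK1. The same holds for CCND2, CDK2, CDK6 and the CCNE2 probes, which the comparison of 3 against 3 replicates did not call. The CCNB1 probes move to opposite sides once the slide is considered.

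With the slide as a term, 1 of the 12 probes (WEE1) was called lower and 0 higher, where 2.19% of all 20038 probes in that fit were called lower and 1.35% higher. Of the 4 probes with an unadjusted p under 0.05 in that fit, WEE1, CDK1 and CCNE1 were lower and CCNB1 probe A_33_P3401621 was higher. The share of all probes at that unadjusted p was not counted. On slide 2, the NCE array lay above all 6 CYGB+ arrays for 5 of the 12 probes (WEE1, CDK1, CCNE1, CCNA2 and CCNE2 A_33_P3247022), against 17.3% of all probes tested.

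Genes that act on the same kinases were read out from the same fit. For this and the following lists, the shares over all probes tested were 5.75% called lower and 5.88% called higher. Of 10 probes for other genes of CDK phosphorylation and activation, not all of them enzymes, 1 was called. It was MNAT1, a subunit of the CDK-activating kinase (−0.58 ± 0.12 (SE), adjusted p = 0.0236), which was not called in the fit with the slide (−0.49, adjusted p = 0.227). PKMYT1, the membrane-bound relative of WEE1, and the phosphatases CDC25A, CDC25B and CDC25C, which undo its mark, were not called, and their differences ran from −0.17 to 0.18. Of 7 probes for CDK inhibitors, 1 was called higher: CDKN2A, which encodes p16 and blocks CDK4 and CDK6, rose by 1.04 ± 0.20 (adjusted p = 0.0190) from 10.41 ± 0.30 in NCE to 11.45 ± 0.29 in CYGB+ (SD, n = 3, limma). Its difference with the slide as a term was 0.74 (adjusted p = 0.163).

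Among 11 probes for other cell cycle cyclins, CCNI was higher (0.47, adjusted p = 0.0316) and CCNJ lower (−0.44, adjusted p = 0.0499). Of 11 probes for cyclins of the transcription kinases, CCNH, the partner of CDK7, was higher (0.67, adjusted p = 0.0236), and CCNC was lower (−0.45, adjusted p = 0.0421). The 3 probes of CCNL2 did not share a direction: 1 was called lower (−0.47, adjusted p = 0.0207) and the others were at 0.43 (adjusted p = 0.130) and −0.28 (adjusted p = 0.330). Of 25 probes for other CDKs, CDK11A (0.50, adjusted p = 0.0180) and CDK20 (0.35, adjusted p = 0.0458) were higher and CDK10 lower (−0.49, adjusted p = 0.0399). Further probes of CDK20 and CDK10 were not called (0.40 and −0.23, adjusted p = 0.0888 and 0.174). The further CDK20 probe was called without the array that stood apart (0.42, adjusted p = 0.0464). CDK11A has a near-identical copy, CDK11B, so that the probe's signal cannot be given to either with certainty. The medians of these lists were −0.04, −0.01 and 0.03. None of their probes was called in the fit with the slide, where CCNJ (−0.18) and CDK10 (−0.003) in particular differed less. CDK10 also lost its call without the array that stood apart (−0.34, adjusted p = 0.0658).

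Genes that act with or after the cyclins were read out in the same way, beside the same shares of all probes tested (5.75% lower and 5.88% higher). Of 26 probes of the RB and E2F list, RBL1 (p107, −0.65, adjusted p = 0.0197) and LIN52 (−0.56, adjusted p = 0.0213), a subunit of the DREAM complex, were lower and 0 higher, and neither was called in the fit with the slide (−0.49 and −0.65, adjusted p = 0.231 and 0.0831). A further RBL1 probe had a difference of −0.91 and was not called (adjusted p = 0.195), and it was at 0.04 in the fit with the slide. Of 21 probes of the S phase list, 3 were lower and 2 higher, with a median of 0.16. GINS1, a subunit of the replicative helicase, fell by 1.06 on the log2 scale (adjusted p = 0.00508), and PCNA, the sliding clamp of DNA polymerase, fell by 0.66 (adjusted p = 0.0240). MCM4, a further helicase subunit, was also lower (−0.49, adjusted p = 0.0243). GINS1 was called with the slide as a term (−0.93, adjusted p = 0.00833), and PCNA and MCM4 were not (−0.59 and −0.47, adjusted p = 0.168 and 0.156). A further PCNA probe had a difference of −0.55 (adjusted p = 0.141), and was called without the array that stood apart (−0.74, adjusted p = 0.0429). With the slide as a term this probe was at −0.22 (adjusted p = 0.901).

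Of 24 probes for G2 and mitosis genes, 4 were lower and 1 higher, with a median of −0.10 and 18 negative. Over all probes tested, 5.75% were called lower, 5.88% were called higher and 49.8% were negative. ANLN (anillin, of the cleavage furrow, −0.85, adjusted p = 0.00796), TPX2 (the activator of Aurora A, −0.84, adjusted p = 0.00829) and DLGAP5 (−0.56, adjusted p = 0.0242) showed the largest called differences, and CDCA8 was also lower (−0.46, adjusted p = 0.0411) and PTTG1 higher (0.51, adjusted p = 0.0270). In the fit with the slide CDCA8 was at −0.39 (adjusted p = 0.561) and PTTG1 at 0.09 (adjusted p = 0.907), and without the array that stood apart CDCA8 was at −0.35 (adjusted p = 0.105). Of 14 probes for mitotic kinases and the checkpoint, AURKA (Aurora A, −0.74, adjusted p = 0.0266) and NEK2 (−0.47, adjusted p = 0.0406) were lower and 0 higher, and 11 were negative. A further NEK2 probe was not called (−0.37, adjusted p = 0.153), and it was at −0.03 in the fit with the slide. With the slide as a term, DLGAP5 (−0.80, adjusted p = 0.0108) was called, and ANLN, TPX2, AURKA and NEK2 were not (−0.59, −0.78, −0.93 and −0.32, adjusted p = 0.101, 0.171, 0.231 and 0.341). That fit also called CENPF probe A_24_P96780 lower (−0.75, adjusted p = 0.0132), which the main fit did not (−0.25, adjusted p = 0.255). The other CENPF probe was at −0.15 with the slide as a term (adjusted p = 0.943). Of 27 probes for the ubiquitin ligases APC/C and SCF, which destroy cyclins, SKP1 (0.55, adjusted p = 0.0213) and CDC23 (0.45, adjusted p = 0.0455) were higher and 0 lower, and none was called in the fit with the slide (0.67 and 0.42, adjusted p = 0.118 and 0.304). Without the array that stood apart SKP1 was at 0.45 (adjusted p = 0.0506), and a further SKP1 probe was not called (0.25, adjusted p = 0.338).

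**Figure D3:**
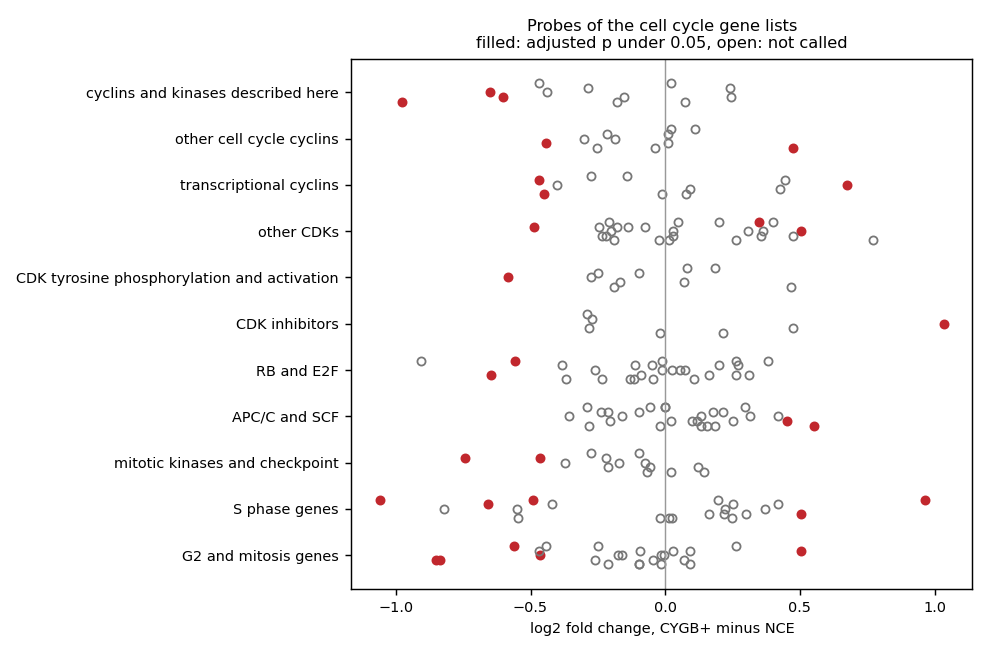
Log2 fold change, CYGB+ minus NCE, of each tested probe of the cyclins and kinases and of 10 other cell cycle gene lists, 1 circle per probe. Filled circles were called at an adjusted p under 0.05 and open circles were not; the vertical shift within a list is for legibility only. Most circles of every list are open, and the called ones lie on both sides of 0 for the other CDKs and on the lower side for the RB and E2F list.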

How the data were processed

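RNA levels of PE/CA-PJ41 cells were measured on 15 arrays, 9 of NCE and 6 of CYGB+ samples. The files hold intensity values that the authors deposited as written by Agilent Feature Extraction 10.7.3.1 under a two-colour protocol. Per the labels every sample was labelled with Cy3, so the green channel was used. The methods name Cy5 for control RNA, and what the red channel holds is not stated. The authors also deposited a table of natural log values, found here to be centred on the median of the 6 CYGB+ arrays and to follow the processed green signal. That table was used as an alternative, on the log2 scale.

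Median green signals were background-corrected with normexp (offset 50), in place of the mean signals that had been planned and are not among the columns used here, then taken to log2 and quantile normalised. Control spots and spots flagged as outliers (0.916% of spots) were left out. Spots of a probe, then the arrays of a biological replicate, were averaged. A probe was tested if it was well above background in most arrays of every replicate of at least 1 group (20417 of 42405). The 3 NCE and 3 CYGB+ replicates were compared with limma 3.58.1 in R 4.3.3, with Benjamini-Hochberg adjustment over all probes tested and a threshold of 0.05, and intervals are 95%. The slide term was fitted over single arrays with the biological replicate as a random block. Probes were named through RefSeq accessions, and each probe of a gene was kept apart. The number of arrays limits the precision.

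Deviations from the group means correlated between same-numbered replicates at 0.218, 0.232 and 0.312. Pairing NCE 1, 2 and 3 with CYGB+ 2, 3 and 1 gave 0.213, 0.304 and 0.165, so that these values do not single out the numbered pairs. The main fit did not pair the samples, and a fit with the replicate as a block was run as an alternative. The alternatives covered background correction, scaling, the filter, the slide, the replicate block, the methods' t-test, the deposited values and leaving out replicates or arrays. The scripts were tested on simulated data. All member probes are named, with at most the 3 called genes of largest difference from each other list. Members, lists and tests were chosen with earlier results of these data known. Further probes of RBL1, CCNL2, PCNA, SKP1, CDK10, CDK20 and NEK2 were named after their values were seen. So were PKMYT1, the CDC25 genes, MCM4, CDCA8, PTTG1 and CENPF. A leukocyte marker and an S phase gene of the lists enter their counts but are not reported here by name.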

Additional observations from a re-analysis of the deposited data

Results flagged for a closer look

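Across the arrays of each group, 3 of 24 sets of values (12 probes in 2 groups) held an array whose gap to its nearest neighbour was large for the spread of the set, and chance gives such a gap in about 1 in 20 sets. For CCND3, array 1 of CYGB+ replicate 1 read 8.42, below the nearest CYGB+ array at 9.69. For CDK6 the same array read 12.58, above the nearest at 11.81. For CCNB1 probe A_33_P3401621, array 3 of NCE replicate 1 read 9.40, below the nearest NCE array at 9.70, and this is the only NCE array on slide 2.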

How the results depend on the processing

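Over all 19 alternatives WEE1, CCNE1 and CDK1 stayed lower in CYGB+, and they were called in 17, 13 and 10 of them. A constant direction was not particular to them. CCND2, CDK6 and the CCNE2 probes were also lower in all 19, and CDK2 in the 18 that held it. Changing the filter, the replicate block, the t-test and the fit over single arrays without the slide left each difference as it was, so their direction could not change. The counts of all probes called higher and lower, 1201 and 1174, became 270 and 438 with the slide as a term, 3 and 2 within slide 2, 2345 and 2317 over single arrays without the slide, 403 and 344 by the methods' t-test, and 764 and 680 on the authors' processed values. Lower calls were 747 with normexp and the 75th percentile. Leaving out 1 replicate at a time gave 246 to 1260 higher and 251 to 1139 lower.

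Of the member probes, 1 was called lower with the slide as a term, 5 over single arrays, 0 by the methods' t-test and 1 on the authors' values, which held 11 of the 12 probes (not CDK2). Leaving out 1 replicate gave 0 to 1 higher and 1 to 3 lower, with 1 lower (WEE1) without NCE replicate 2 and without NCE replicate 3, and 1 higher (CCND3) without CYGB+ replicate 1. Without NCE replicate 1 the 3 lower were WEE1, CCNE1 and CCND2. CDK1 lost its call whichever NCE replicate was left out (limma adjusted p = 0.0544, 0.0877 and 0.0899 without replicates 1, 2 and 3). With the replicate block 4 were lower (1521 and 1532 over all probes), CCNE2 probe A_33_P3247022 being added, and no other member's call changed. Alternatives that leave out single arrays were chosen after seeing the data. Without the array that stood apart, 2062 probes were higher and 2024 lower, with 1 and 4 members, and without the 3 arrays lowest in correlation with their group 2583 and 2438, with 1 and 6 members. The cause of these shifts was not tested.

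The limit on these results is the near match of slide and group, with 1 NCE array on the slide of all CYGB+ arrays. CYGB+ was 1 clone, so that clone and transgene cannot be told apart. With 3 replicates in each group, an exact permutation test of a single probe cannot go below p = 0.1.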
